A study of Homo sapiens with 4 samples.

Results

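Small nucleolar RNA host genes are long noncoding RNA genes with small nucleolar RNAs (snoRNAs) inside their introns. The group was taken by name from the deposited gene table, as every symbol made of SNHG and a number together with GAS5, ZFAS1 and EPB41L4A-AS1. This gave 31 of the 61806 genes of the table, on 15 chromosomes, and 30 of them were not protein-coding in GENCODE release 29. RNA was measured in JJ012, a human chondrosarcoma cell line, and in 143B, a human osteosarcoma cell line, both kept in suspension so that the cells could not attach. Each line was left untreated as a control or exposed to 1 mM melatonin for 72 h, with 1 library per condition and 4 libraries in all. The RNA was selected by its poly(A) tail, which the host transcripts carry and most mature snoRNAs lack. The question was which host genes differed after melatonin in each line, and how the untreated lines differed from each other.

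A snoRNA is cut out of the intron of its host after splicing and then guides the chemical modification of ribosomal RNA. Box C/D snoRNAs guide methylation, box H/ACA snoRNAs guide pseudouridylation, and the related scaRNAs act on the RNAs of the spliceosome. The spliced remainder of a host often has short reading frames, is translated and is then removed by nonsense-mediated decay, the pathway that destroys transcripts with early stop codons. Many hosts also begin with a 5′ terminal oligopyrimidine (TOP) tract, a C followed by further C or T bases at the transcript start, which ties them to the translation machinery in the same way as ribosomal protein mRNAs. GAS5 was named for its accumulation in cells that stop growing.

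The transcript starts are shown because a TOP tract is the sequence feature this class of genes is known for, and because it can be set beside the responses described further on. RefSeq promoter windows (GRCh38.p14) were matched for 27 of the 31 host genes, and each window held the 10 bases before the annotated start and the 20 bases after it. The words CTTTT and CTTTC were searched, chosen after the windows had been read. They share their first 4 letters and were counted together. Because the words were picked from these windows, a higher share than in other windows was partly fixed by the choice, and the counts are a description only. At least 1 of them stood on the strand of the gene in 9 of the 27 windows (33.3%), against 7.67% of 35116 RefSeq windows of the same length, and on the opposite strand the shares were 3.70% and 5.44%. Of the 10 host genes that rose with melatonin in JJ012 and had a window, 6 held a word. These are printed first, 5′ to 3′ with the word in capitals. A word was counted wherever it stood in the window, so some lie away from the annotated start. The windows of SNHG1, SNHG7, EPB41L4A-AS1 and GAS5, which also rose, held neither word and are not printed.
SNHG12, chr1:28581854-28581883, minus strand: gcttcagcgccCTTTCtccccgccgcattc
SNHG32, chr6:31834906-31834935, plus strand: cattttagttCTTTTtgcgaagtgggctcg
SNHG16, chr17:76557754-76557783, plus strand: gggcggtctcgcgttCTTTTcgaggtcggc
SNHG4, chr5:139274091-139274120, plus strand: ctcccggctgccCTTTCccctccggcctct
SNHG8, chr4:118278752-118278781, plus strand: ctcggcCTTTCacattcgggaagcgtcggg
SNHG29, chr17:16438977-16439006, plus strand: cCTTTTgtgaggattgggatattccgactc
The other 3 windows with a word came from the 9 host genes with a window that were called in neither direction in JJ012.
ZFAS1, chr20:49278632-49278661, plus strand: gccattcgttCTTTCgcgtctgcggtgccc
SNHG5, chr6:85678714-85678743, minus strand: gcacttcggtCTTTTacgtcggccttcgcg
SNHG19, chr16:2155339-2155368, minus strand: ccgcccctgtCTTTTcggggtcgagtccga
The windows of the 4 host genes that fell in JJ012 and had a RefSeq window held neither word, and they are printed in lower case throughout. From its annotated start onward the SNHG18 window holds only C and T bases, beginning with a C. A window without the words can therefore still hold a run that meets the description of a TOP tract.
SNHG18, chr5:9546190-9546219, plus strand: gccgcgccgcctcctcctcctcctcctccc
SNHG30, chr17:35568104-35568133, plus strand: tgtaagacctgagccgggcggagaagcaaa
SNHG26, chr7:22854230-22854259, plus strand: taaacttgatctccgcagtgccctcccttt
SNHG27, chr4:131764828-131764857, plus strand: ctgtggtcacagtgaccgccaccgttgccc

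The order of printing follows the responses in JJ012, and no relation to them is drawn from words chosen in this way. A match is a run of letters and not a mapped start or a working TOP tract. The word began at the annotated start for SNHG32, ZFAS1, SNHG5 and SNHG19, and shortly after it, in a run of C and T, for SNHG12 and SNHG4. It began further inside for SNHG16 and before the annotated start for SNHG8 and SNHG29, in SNHG29 lying wholly before it. So the genes called in neither direction had it at the annotated start, and most of those that rose did not. The RefSeq start lay within 60 bases of the start in the deposited table for 13 of the 27 host genes only, and a window without the words says nothing of a start elsewhere. GAS5 is an example, since its RefSeq start lay 163 bases from the start in the table and its window held no word. Of 29 GAS5 transcripts in GENCODE 29, 6 began with a word at their first base. The start of 1 of these is printed for its likeness to the SNHG16 window, from GAS5-210, which is annotated as a retained intron.
GAS5-210: CTTTTcgaggtaggagtcga

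The libraries held between 15889564 and 19218343 counts. At these depths a floor of 3 counts corresponded to between 0.156 and 0.189 CPM, the counts scaled to the library total. The share of mitochondrially encoded genes was 6.78% in untreated and 4.35% in melatonin-treated JJ012, and 1.63% and 2.46% in 143B. Of the cartilage markers, COL2A1 and ACAN were at or below 0.11 FPKM in every library, while SOX9 had between 6.16 and 15.48 FPKM. Of the bone markers, SP7 and IBSP were at or below 0.13 FPKM and RUNX2 had between 2.59 and 4.28 FPKM. The 10 cartilage markers summed to 41.13 FPKM in untreated and 11.15 FPKM in treated JJ012 and to 18.78 and 15.12 FPKM in 143B, and 3 of 3 that passed in JJ012 fell with melatonin (COL11A1, COL11A2 and SOX9). The 10 bone markers summed to 98.33 and 71.58 FPKM in JJ012, of which SPP1 alone gave 79.39 and 64.50 FPKM without a call. There 1 of 5 that passed fell (COL1A1). In 143B the bone markers summed to 8.54 and 6.90 FPKM, and neither list had a call. The part of these markers and of the mitochondrial share in the host gene results was not tested. Across all genes that passed the filter, the log2 fold change with melatonin in JJ012 was weakly correlated with the exonic length of the gene (Spearman correlation 0.24 over 15794 genes, which are not independent and share the same libraries), and in 143B the value was -0.01.

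Levels were taken as FPKM, the counts of a gene divided by its exonic length and by the total of the library. The host genes together held 25594 counts in untreated JJ012, which was 0.133% of that library (exact 95% binomial interval 0.132 to 0.135%). With melatonin they held 33317 counts, or 0.206% (0.204 to 0.209%). The share in 143B was 0.308% (0.305 to 0.311%) untreated and 0.287% (0.285 to 0.290%) with melatonin. The JJ012 control therefore had the smallest share of the 4 libraries, and melatonin-treated JJ012 lay between it and both 143B libraries. The same order was seen for the summed FPKM of the host genes, which came to 324 (untreated) and 485 (melatonin) in JJ012 and to 620 and 576 in 143B. The intervals cover counting error only, and there was no second culture of any condition, so the spread between cultures is unknown. In these bulk samples, fewer expressing cells and less RNA per cell cannot be told apart.

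SNHG32 was the host gene with the highest FPKM in all 4 libraries, ranging from 50.73 FPKM in the JJ012 control to 113.04 FPKM in the 143B control. GAS5 came next in 143B, with 109.34 FPKM when untreated, but in the JJ012 control its 30.02 FPKM lay behind SNHG32, SNHG6 and SNHG19. SNHG29 followed in both 143B libraries, at 85.01 and 81.82 FPKM. At the other end, 5 host genes did not reach 1 FPKM in any library, namely SNHG14, SNHG22, SNHG25, SNHG28 and SNHG31. SNHG14, whose transcript runs through the imprinted SNORD115 and SNORD116 clusters, had between 446 and 1562 counts per library, but these were spread over an exonic length of 122609 bases and came to between 0.19 and 0.74 FPKM. The exonic length in the table equalled the whole gene span for 6 host genes (SNHG1, SNHG8, SNHG9, SNHG15, SNHG19 and EPB41L4A-AS1), so the FPKM of these includes their introns and spliced RNA could not be separated from unspliced RNA.

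**Figure D1:**
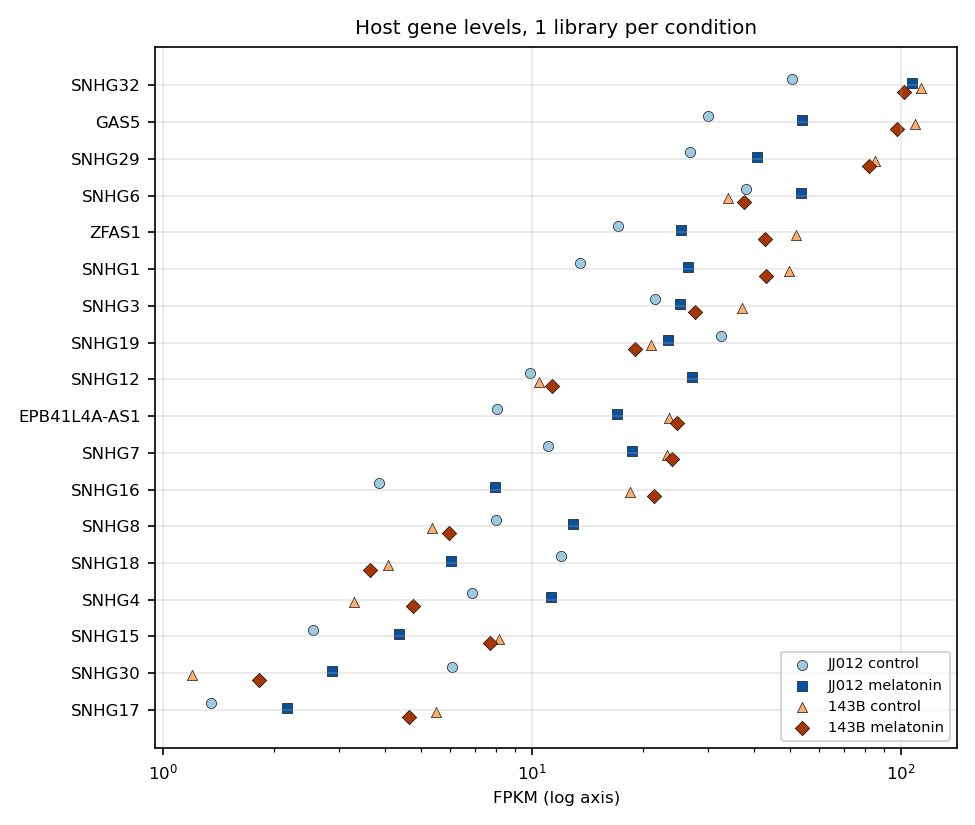
FPKM (log axis) of the 18 host genes that reached 5 FPKM in any library, with 1 point per library and the genes ordered by level. For most of the genes in the upper part the JJ012 control lies to the left of the other 3 libraries, and the exceptions include SNHG19 and SNHG18, where it lies to the right.

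With melatonin in JJ012, 11 host genes rose, 5 fell and 10 were called in neither direction, out of 26 that reached 1 FPKM in either library of the line. A gene was called when the log2 ratio of FPKM + 1 was at least 0.58 in size, a fold threshold that understates the change of low genes and carries no test. Among all 15794 genes that passed the same filter, 19.6% were higher and 18.6% were lower. The share of host genes that rose was 42.3%, and the share that fell was 19.2%. The median log2 fold change of the host genes was 0.46 (quartiles -0.28 and 0.69, range -0.88 to 1.38), against 0.01 over all genes. It was 0.09 over the 6 host genes that overlap no other gene, of which 2 rose and 2 fell. Over genes that were not protein-coding, 25.3% were higher and 25.2% were lower. Scaling the libraries to TPM moved the median of all genes to 0.27 and the share of higher genes among those called from 51.4 to 68.9%. The host genes then had a median of 0.80, which was 0.53 above all genes, against 0.45 above them with FPKM. With the running median over exonic length removed, 10 host genes were higher and 1 was lower, and the median was 0.27.

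Host genes of higher level were taken as those with a mean of at least 5 FPKM over all 4 libraries. This split was added after the data had been seen. Of 16 such host genes 11 rose and 1 fell in JJ012, and their median was 0.63. Of 7248 genes at that level, 21.3% were higher and 15.7% were lower, with a median of 0.06. The mean took in SNHG15, which stayed below 5 FPKM in JJ012, and left out SNHG30, which fell there. With a filter of 5 FPKM in either JJ012 library, 10 of 16 host genes rose and 2 fell. Over the 8437 genes that passed that filter, 22.1% were higher and 17.7% were lower. The closest values to the threshold belonged to SNHG29 (0.58) and SNHG15 (0.59) on the inside and to ZFAS1 (0.54) and SNHG6 (0.49) on the outside.

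**Figure D2:**
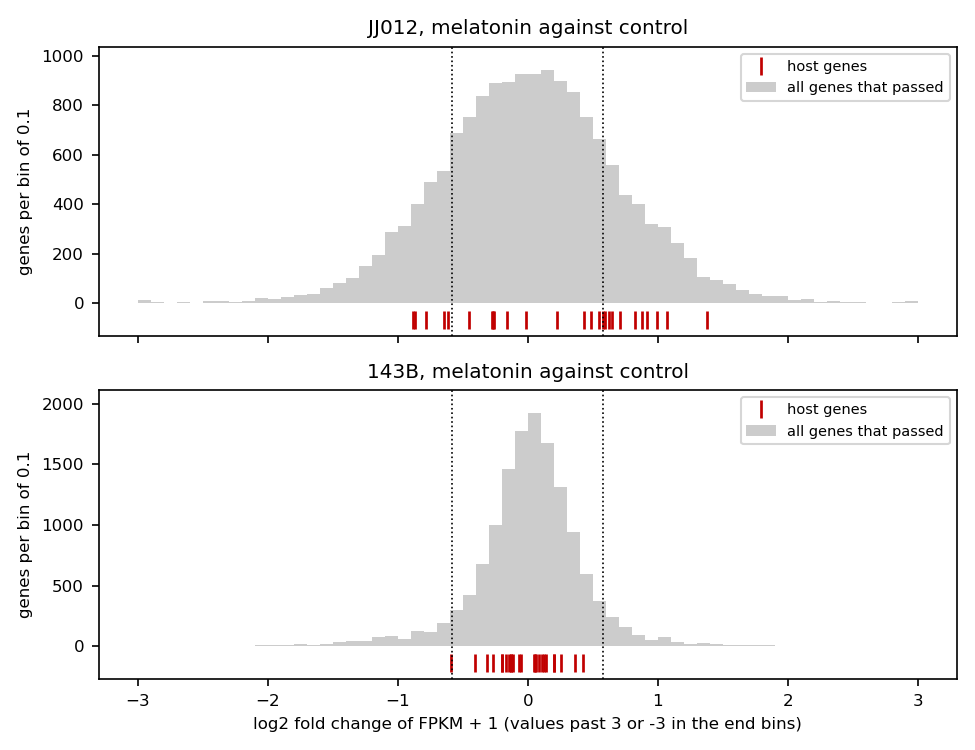
Number of genes per bin of 0.1 in the log2 fold change of FPKM + 1, melatonin against control, over all genes that passed the filter (grey), with each host gene as a red tick and dotted lines at the fold threshold of 0.58. In JJ012, 11 ticks lie above the upper line and 5 below the lower line, and in 143B, 1 tick lies below the lower line.

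In 143B, 0 of 25 host genes rose and 1 fell with melatonin, and no test was possible with 1 library per condition. Among all 14135 genes that passed, 6.09% were higher and 6.65% were lower. The median of the host genes was -0.05, with a range from -0.59 to 0.42, against 0.03 over all genes. Of the 16 host genes with a mean of at least 5 FPKM 0 were called, against 3.51% higher and 2.46% lower over all genes at that level. The gene that fell was SNHG9, host of SNORA78, which lies beside a ribosomal protein gene. Its counts were 23 untreated and 13 with melatonin, and the interval of its ratio included 0. Without calls at the fold threshold, the intervals of the ratios of CPM still showed differences beyond counting error in both directions. The interval lay above 0 for 4 host genes (SNHG4, SNHG6, SNHG16 and SNHG20), below 0 for 8 (SNHG1, SNHG3, SNHG5, SNHG17, SNHG29, SNHG32, GAS5 and ZFAS1) and included 0 for 13. Over all genes it lay above 0 for 28.4% and below 0 for 23.5%. In JJ012 the interval lay above 0 for 15 of 26 host genes and below 0 for 7, and over all genes for 36.9% and 35.2%.

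Hosts with several snoRNAs are described first. SNHG12 carries 1 box C/D and 4 box H/ACA snoRNA rows in the table, and 2 of the H/ACA rows are overlapping rows of SNORA16A. It had 9.88 FPKM in the JJ012 control and 27.24 FPKM after melatonin, and 10.44 and 11.33 FPKM in 143B. In CPM it was 2.76-fold higher with melatonin in JJ012, with a log2 ratio of 1.46 (95% interval 1.34 to 1.58), the largest rise of a host gene in this line. Folds of single genes are given in CPM from here on, and calls were made on FPKM. The melatonin-treated JJ012 library thus stood apart from the other 3, which lay close together. SNHG12 overlaps TRNAU1AP on the other strand, and since the strand setting of the counting is not given in the sources used here, reads of the 2 genes could be mixed.

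SNHG1, the host of SNORD22 and of other box C/D snoRNAs, is an early example of a host whose intronic snoRNAs are conserved while its exons are not. Its levels were 13.52 FPKM in the JJ012 control, 26.45 FPKM after melatonin, 49.78 FPKM in the 143B control and 43.18 FPKM after melatonin. With melatonin it rose 1.96-fold in JJ012, to a log2 ratio of 0.97 (0.86 to 1.08), and in 143B the log2 ratio was -0.21 (-0.28 to -0.13). The level after melatonin in JJ012 stayed below both levels of 143B. No other gene of the table overlapped SNHG1, nested small RNAs aside.

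SNHG16, host of SNORD1A, SNORD1B and SNORD1C, had 3.86 FPKM in the JJ012 control, 7.95 FPKM after melatonin, 18.46 FPKM in the 143B control and 21.40 FPKM after melatonin. It rose 2.06-fold in JJ012, and in 143B the CPM ratio was 1.16-fold. SNHG7, host of SNORA17A and SNORA17B, had 11.05 and 18.71 FPKM in JJ012 and 23.19 and 23.96 FPKM in 143B, a rise of 1.69-fold in JJ012. For both genes the 2 JJ012 libraries lay below the 2 libraries of 143B.

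SNHG29, host of SNORD49A, SNORD49B and SNORD65, had 26.90 FPKM in the JJ012 control and 40.74 FPKM after melatonin, against 85.01 and 81.82 FPKM in 143B. It was the host gene with the most counts, between 4625 and 12566 per library, so its rise of 1.51-fold in JJ012 had a narrow interval (log2 ratio 0.60, 0.54 to 0.65). It stood at the threshold and was called under 3 of 6 other settings. ZFAS1, host of SNORD12, SNORD12B and SNORD12C and antisense to the start of ZNFX1, had 17.10 and 25.38 FPKM in JJ012 and 51.82 and 42.89 FPKM in 143B, and it was not called in either line. Its log2 ratio was 0.57 (0.50 to 0.64) in JJ012 and -0.27 (-0.32 to -0.22) in 143B. SNHG17, host of the SNORA71 snoRNAs, had 1.35 and 2.17 FPKM in JJ012 and 5.51 and 4.66 FPKM in 143B, also without a call on FPKM + 1. In CPM its ratio in JJ012 was 1.61-fold (log2 ratio 0.68, 0.47 to 0.90). Among the host genes with at least 3 nested snoRNA rows that passed, 5 of 7 rose in JJ012 and 0 fell, with a median of 0.71, and among those with 1 or 2 rows 5 of 18 rose and 5 fell, with a median of -0.21. Over all genes 19.6% were higher and 18.6% were lower. SNHG7 stood in the first group only through 2 overlapping rows of SNORA17B, and its value was the median of that group. GAS5, with no nested row, stood in neither group. No test was made of this split.

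GAS5 had 30.02 FPKM in the JJ012 control and 53.82 FPKM after melatonin, and 109.34 and 97.37 FPKM in 143B. It rose 1.79-fold in JJ012, with a log2 ratio of 0.84 (0.77 to 0.91) from 2845 and 4285 counts. In 143B its log2 ratio was -0.17 (-0.21 to -0.12), so the intervals of the lines did not overlap. No nested snoRNA row was found for GAS5 in the rows used here, although the gene is known to host box C/D snoRNAs. In GENCODE 29, 19 of its 29 transcripts are annotated as retained introns, and the gene count cannot separate these from spliced transcripts.

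Among the hosts of 1 or 2 box C/D snoRNAs, SNHG32 rose and 3 genes of lower level fell. SNHG32, host of SNORD48 and SNORD52, had 50.73 FPKM in the JJ012 control, 107.48 FPKM after melatonin, 113.04 FPKM in the 143B control and 102.15 FPKM after melatonin. It was 2.12-fold higher with melatonin in JJ012 (log2 ratio 1.08, 1.00 to 1.17). The JJ012 control was the low library and the other 3 lay close together. SNHG6, host of SNORD87, had 37.99 and 53.58 FPKM in JJ012 and 33.97 and 37.49 FPKM in 143B without a call, and SNHG19, host of SNORD60, had 32.46 and 23.41 FPKM in JJ012 and 21.01 and 19.07 FPKM in 143B, also without a call.

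SNHG18, host of SNORD123, fell 1.99-fold in JJ012, from 11.98 FPKM to 6.03 FPKM, and had 4.08 and 3.64 FPKM in 143B. SNHG30, host of SNORD7, fell 2.12-fold in JJ012, from 6.07 to 2.87 FPKM. In 143B it had 1.20 and 1.83 FPKM, from 31 and 51 counts. SNHG26, host of SNORD93, fell 2.38-fold in JJ012, from 2.60 to 1.09 FPKM, and had 2.21 and 1.97 FPKM in 143B. For SNHG18 and SNHG30 the JJ012 control was the highest of the 4 libraries, and melatonin-treated JJ012 lay between it and both libraries of 143B. For SNHG26 the JJ012 control and both 143B libraries were close, and the melatonin-treated JJ012 library was the low one.

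Among the hosts of 1 or 2 box H/ACA snoRNAs, 4 rose and 2 fell in JJ012. EPB41L4A-AS1, host of SNORA13, had 8.04 and 17.04 FPKM in JJ012 and 23.54 and 24.67 FPKM in 143B, a rise of 2.12-fold in JJ012. SNHG4, host of SNORA74A and SNORA74D, had 6.87 and 11.31 FPKM in JJ012 and 3.31 and 4.78 FPKM in 143B. Its log2 ratio was 0.72 (0.56 to 0.87) in JJ012, where it was called, and 0.53 (0.29 to 0.77) in 143B, where it was not, and the intervals overlapped. It was the one host gene called higher in JJ012 whose intervals in the lines overlapped.

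SNHG8, host of SNORA24, had 8.02 and 12.90 FPKM in JJ012, a rise of 1.61-fold, and 5.38 and 5.95 FPKM in 143B. SNHG15, host of SNORA9, had 2.56 and 4.37 FPKM in JJ012, a rise of 1.71-fold from 194 and 278 counts, and 8.14 and 7.71 FPKM in 143B. SNHG3, host of SNORA73A and SNORA73B, which act in the early cleavage of the ribosomal RNA precursor, had 21.51 and 25.23 FPKM in JJ012 and 37.16 and 27.76 FPKM in 143B. SNHG3 was called in neither line, and its log2 ratio was 0.23 (0.13 to 0.33) in JJ012 and -0.42 (-0.51 to -0.33) in 143B. SNHG11, host of SNORA60 and SNORA71E, had 3.67 and 2.90 FPKM in JJ012 and 2.10 and 2.56 FPKM in 143B, also without a call.

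The 2 hosts of H/ACA snoRNAs that fell in JJ012 had few counts. SNHG27, host of SNORA70, had 81 and 21 counts in untreated and treated JJ012 (1.02 and 0.32 FPKM), a fall of 3.24-fold, and 0 and 1 counts in 143B. SNHG9 had 16 and 5 counts in JJ012 (1.35 and 0.50 FPKM), and the interval of its log2 ratio, -3.23 to 0.09, included 0. The fall of SNHG9 was therefore not detectable beyond counting error at this depth.

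Of the hosts of scaRNAs, 3 passed the filter in JJ012 and 0 were called, with a median of -0.27. SNHG20, host of SCARNA16, had 2.40 and 1.82 FPKM in JJ012 and 0.95 and 1.33 FPKM in 143B, with log2 ratios of -0.40 (-0.68 to -0.12) and 0.48 (0.09 to 0.88). SNHG21, host of SCARNA15, had 4.64 and 3.65 FPKM in JJ012 and 1.08 and 1.16 FPKM in 143B. The 2 passing host genes that are not named with their levels here, SNHG5 and SNHG10, had between 1.63 and 4.22 FPKM and were not called in any comparison.

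**Figure D3:**
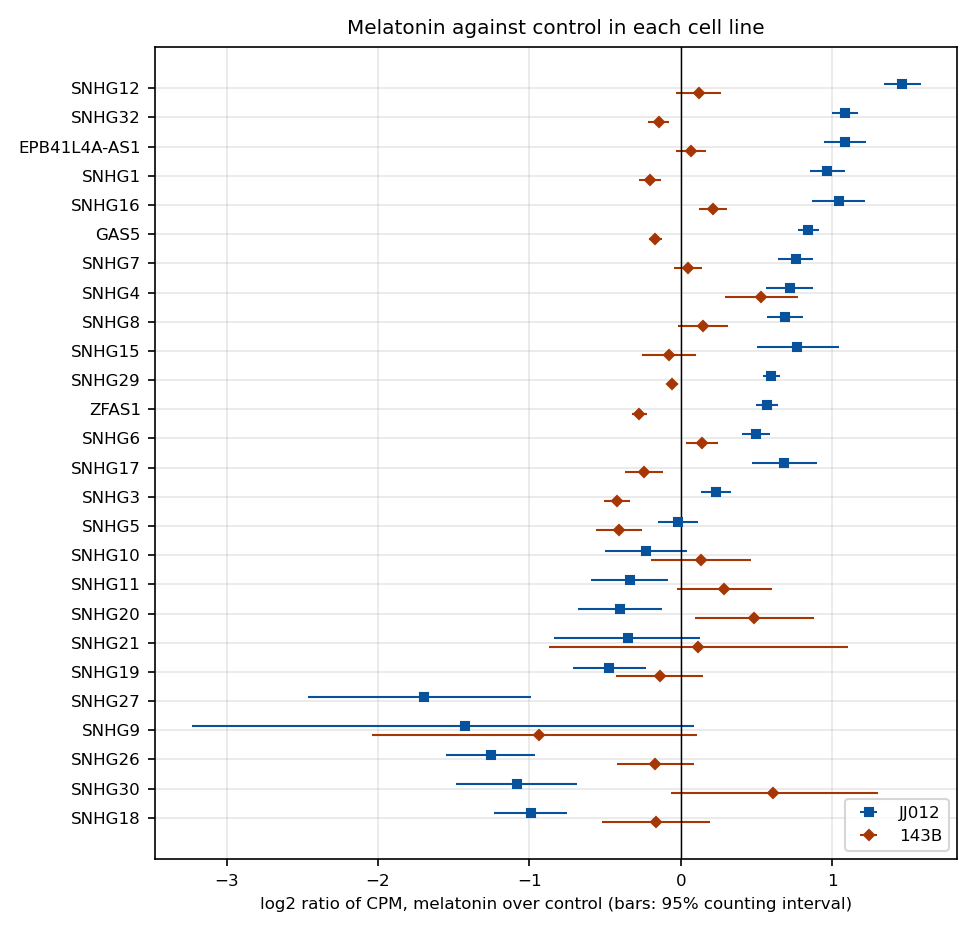
Log2 ratio of CPM, melatonin over control, for the host genes that passed the filter, in JJ012 (blue squares) and 143B (red diamonds), with bars for the 95% counting interval from 1 library per condition, and no 143B point for SNHG27, which had 0 and 1 counts there. From SNHG12 down to SNHG29 the blue squares lie above 0.5, and the red diamonds lie between -0.3 and 0.3 for all of these except SNHG4.

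Of the 25 host genes that passed in both lines, 20 had intervals that did not overlap between the lines. In 15 of these JJ012 lay above 143B and in 5 below, against 31.5% and 27.6% of the 11822 genes that passed in both lines. The 15 were the 11 called higher in JJ012 without SNHG4, together with ZFAS1, SNHG3, SNHG5, SNHG6 and SNHG17. The 5 were SNHG11, SNHG18, SNHG20, SNHG26 and SNHG30. The lines were each compared with their own control and share no library, but 1 culture per condition gives no test of the difference.

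The untreated lines were then compared. This comparison and the melatonin comparison in JJ012 share the JJ012 control library, so an error in that library would enter both, and the values are given side by side without a relation being drawn. Of 26 host genes that passed, 8 were higher and 11 were lower in the JJ012 control than in the 143B control. Over all 16929 genes, 41.3% were higher and 27.4% were lower, and over those not protein-coding, 45.0% and 34.6%. The interval of the CPM ratio lay above 0 for 12 host genes and below 0 for 11, and over all genes for 50.8% and 35.1%. The median of the host genes was -0.01, against 0.29 over all genes, so most genes were somewhat higher in JJ012 by this scale. With TPM the median of all genes was -0.01, the median of the host genes was -0.38, and 6 host genes were higher and 12 lower. With the other scalings the host gene median lay between -0.52 (length trend removed) and -0.29, and it was -0.94 over the 6 host genes that overlap no other gene. The share of higher genes among all those called was 60.1% with FPKM and 49.3% with TPM.

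SNHG16 was 4.79-fold lower in the JJ012 control, SNHG17 4.08-fold, SNHG1 3.68-fold and GAS5 3.64-fold. SNHG15 was 3.18-fold lower, SNHG29 3.16-fold, ZFAS1 3.03-fold and EPB41L4A-AS1 2.93-fold. The smallest of these differences belonged to SNHG32 at 2.23-fold, SNHG7 at 2.10-fold and SNHG3 at 1.73-fold. Among the 16 host genes with a mean of at least 5 FPKM over all 4 libraries, 3 were higher and 10 were lower, with a median of -1.07, against 36.7% and 27.8% of 7420 genes at that level and a median of 0.14.

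SNHG30 was 5.04-fold higher in the JJ012 control than in the 143B control, SNHG21 4.32-fold, SNHG18 2.94-fold and SNHG20 2.53-fold. SNHG4 was 2.08-fold higher, SNHG11 1.75-fold and SNHG19 1.54-fold, and the calls of SNHG11 and SNHG19 held in 1 of 6 alternative settings each. SNHG27, with 81 counts against 0, was at least 22.3-fold higher when 143B was set at the floor of 3 counts. SNHG12 differed little between the controls, with a log2 ratio of -0.08 (-0.23 to 0.07), and after melatonin in JJ012 it had the largest rise of the group.

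**Figure D4:**
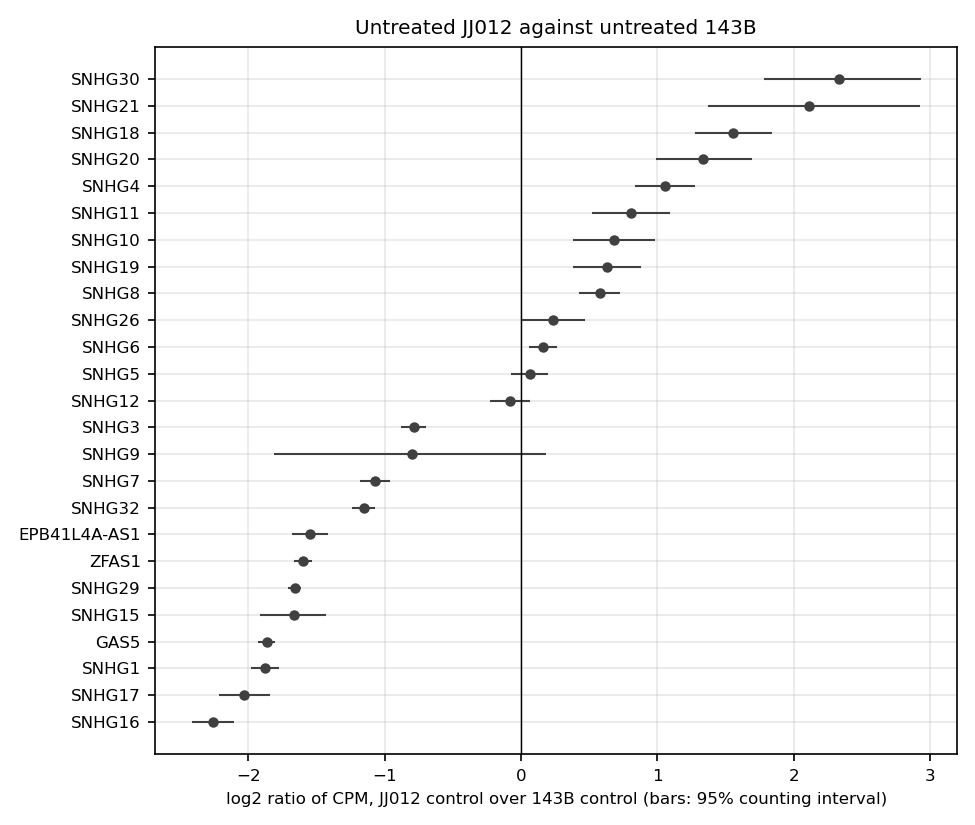
Log2 ratio of CPM in the JJ012 control over the 143B control for the host genes that passed the filter, SNHG27 aside because it had 0 counts in 143B, with bars for the 95% counting interval. The points run from SNHG30 at 2.33 to SNHG16 at -2.26, and the intervals of SNHG5, SNHG9 and SNHG12 include 0.

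The genes that act with the snoRNAs gave few calls. Each list count for JJ012 is to be read against the 19.6% of all genes that were higher and the 18.6% that were lower. Of 11 box C/D snoRNP proteins and assembly factors, 1 rose and 1 fell in JJ012, with a median of -0.01. PIH1D1, part of the R2TP complex that assembles these particles, fell from 23.84 to 10.47 FPKM. FBL, the methyltransferase of the box C/D particle, had 17.89 and 12.31 FPKM without a call. Of 6 box H/ACA proteins and assembly factors, 2 rose and 0 fell, with a median of 0.01. One was DKC1, the pseudouridine synthase, which rose from 5.32 to 10.59 FPKM and which itself hosts snoRNAs. In 143B neither list had a call, and the medians were 0.14 and 0.23.

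Of 17 factors of nonsense-mediated decay and of the exon junction complex, 4 rose and 1 fell in JJ012, with a median of 0.36. The kinase SMG1, which phosphorylates UPF1, rose from 5.39 to 19.16 FPKM, and reads from its pseudogene copies could be counted with it. DHX34 rose from 5.39 to 13.53 FPKM and the helicase UPF1 from 8.93 to 15.27 FPKM. In 143B 0 of the 17 were called and the median was -0.00.

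Protein-coding genes that host snoRNAs, ribosomal protein genes aside, gave 3 rises and 1 fall among 15, with a median of 0.23 in JJ012. TAF1D rose 2.38-fold from 25.19 FPKM in the control. HSPA9 rose from 42.22 to 70.59 FPKM, and DKC1 was the other gene that rose. HSPA8 fell from 267.01 to 176.93 FPKM. Of 15 other mRNAs with a TOP tract that passed, 0 rose and 2 fell, with a median of -0.13. FAU, which encodes a ribosomal protein fused to a ubiquitin-like protein, fell from 70.45 to 45.74 FPKM. Of 78 ribosomal protein genes, 0 rose and 10 fell in JJ012, with a median of -0.38. So by FPKM in JJ012 the median of the host genes was positive while those of the TOP mRNAs and the ribosomal protein genes were negative. The alternatives for scaling and exonic length were not run for these lists. With TPM the median of all genes in JJ012 was 0.27, so the signs are given for FPKM only. Whether the contrast holds at other scalings or with the length trend removed was not tested. In 143B both lists had 0 calls, with medians of -0.04 and -0.05. Some genes stand in more than 1 of these lists.

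Long noncoding RNAs outside the group were also described. Of 11 that passed in JJ012, 4 rose and 2 fell, with a median of 0.42, against 0.46 for the host genes. MALAT1, a nuclear RNA of the speckles, rose from 7.71 to 28.34 FPKM, OIP5-AS1 from 5.89 to 14.72 FPKM and NORAD, which binds PUMILIO proteins, from 95.41 to 176.23 FPKM. MIR22HG fell in both lines. Its FPKM were 16.96 and 6.90 in JJ012, and 12.94 and 5.70 in 143B.

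**Figure D5:**
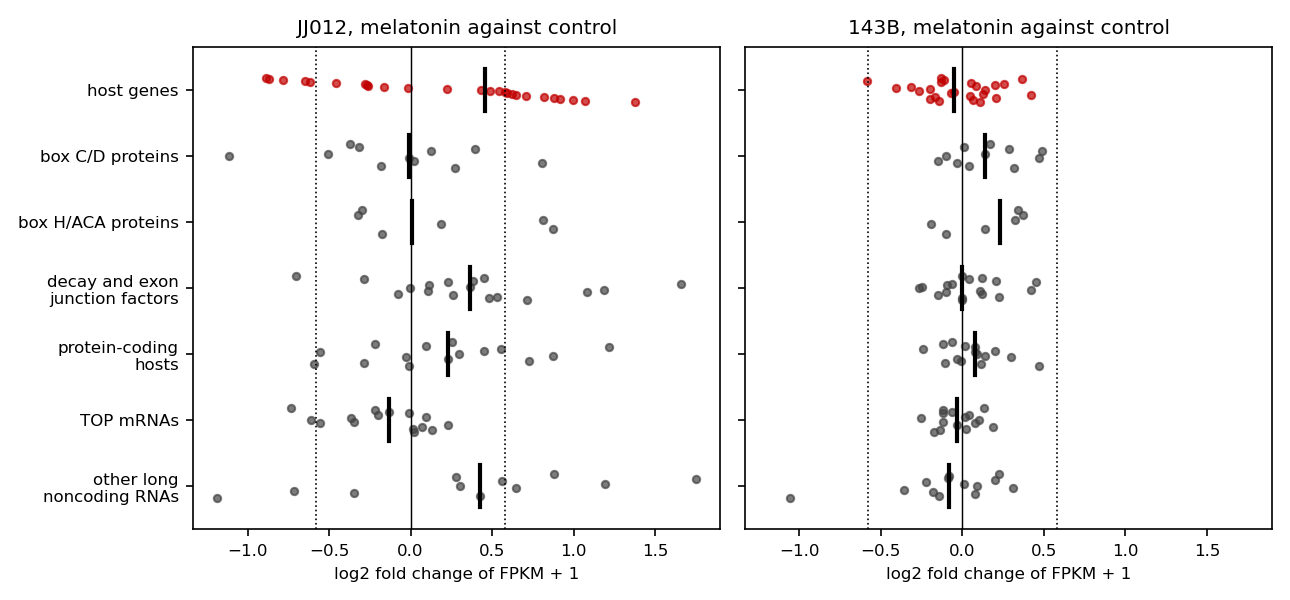
Log2 fold change of FPKM + 1, melatonin against control, for the host genes (red) and for 6 lists of related genes (grey), with 1 point per gene that passed, a bar at each median and dotted lines at the fold threshold of 0.58. In JJ012 the medians run from -0.13 for the TOP mRNAs to 0.46 for the host genes, and in 143B from -0.08 to 0.23.

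The snoRNAs themselves were nearly absent from the tables of these poly(A)-selected libraries. Of 139 snoRNA rows nested in 29 of the 31 host genes, 84 lay in SNHG14, and all together they held 34 and 51 counts in untreated and treated JJ012, and 93 and 69 in 143B. The levels of the host genes therefore describe the host transcripts, and the amount of mature snoRNA was not measured.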

How the data were processed

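For every gene the authors deposited raw counts and FPKM, the latter being the counts divided by exonic length and library total and rounded to 2 decimals. FPKM recomputed from the deposited counts and lengths matched within 0.005 for 100% of genes. The submitters' processing notes name cutadapt 1.9.1, HISAT2 2.2.1, HTSeq 0.6.1, DESeq2 and the hg38 build without their roles. The strand setting, the annotation release and the treatment of read pairs in counting are not given in the sources used here. Libraries were sequenced as paired ends on an Illumina NovaSeq. Table columns were matched to samples by cell line, and the suffix T was read as melatonin.

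Each comparison used log2 of FPKM after adding 1, kept the genes that reached 1 FPKM in either of its libraries, and called genes at an absolute value of 0.58. With 1 library per condition no p-value was computed. The ratio of CPM had an exact (Clopper-Pearson) 95% interval given the sum of both counts, which covers counting error only. Values are given for host genes that reached 5 FPKM in any library or had a call, and at most 4 genes per list, those with the largest change in either line at 5 FPKM. A few list genes that this would name are left out of the text. The split by a mean of 5 FPKM over all libraries was added after seeing the data. The host genes and lists were chosen with earlier results of these data known. Gene types came from GENCODE 29, promoter windows from RefSeq. snoRNA rows were assigned to a host where they lay inside it on the same strand.

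Alternatives were TPM, adding 0.1 FPKM in place of 1, dropping the filter or raising it to 5 FPKM, CPM with TMM or median-of-ratios factors, centring on the median gene, removal of a running median over 500 genes ordered by exonic length, and host genes without an overlapping gene. The procedures for the melatonin comparisons were tested on simulated counts with counting error only, so variation between cultures was not covered. The planted changes were larger than the fold threshold and lay in genes with ample counts. The simulation therefore does not vouch for calls near the threshold or for host genes with few counts. TMM factors came from edgeR 4.0.16 (R 4.3.3). All else was computed in Python 3.11.15 (pandas 2.3.3, scipy 1.17.1, numpy 2.4.6), and figures were drawn in matplotlib 3.10.9.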

Additional observations from a re-analysis of the deposited data

Results flagged for a closer look

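For 8 host genes the log2 ratio of CPM with melatonin had opposite signs in JJ012 and 143B, with the counting interval of each line on its own side of 0. The difference, JJ012 minus 143B, was 1.23 for SNHG32, 1.17 for SNHG1, 1.01 for GAS5, 0.93 for SNHG17, 0.84 for ZFAS1, and 0.65 for both SNHG29 and SNHG3. These 7 were higher with melatonin in JJ012 and lower in 143B, though SNHG17, ZFAS1 and SNHG3 were not called in JJ012 on FPKM + 1 and none of the 7 was called in 143B. SNHG17 was above the threshold in CPM, with a log2 ratio of 0.68 in JJ012. SNHG20 had the opposite pattern, with a difference of -0.88, and it was called in neither line. The share of all genes with intervals on opposite sides of 0 was not computed, so the count of 8 is not read as particular to the host genes. Intervals away from 0 were common over all genes. In JJ012 they lay above 0 for 36.9% and below 0 for 35.2%, and in 143B for 28.4% and 23.5%. With 1 culture per condition the difference between the lines was not tested.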

How the results depend on the processing

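Each melatonin library was set against the control of its own line, with 1 library on each side, and no test was run. The labels carry no replicate numbers. A fit of 1 melatonin effect common to both lines was not run, and with 1 library per condition none was left out. No host gene changed the direction of a call under any alternative that was run.

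In JJ012, the number of host genes that rose lay between 10 and 14 under all alternatives except the removal of those that overlap another gene, where 2 rose and 2 fell among 6 and the median was 0.09. The number that fell was 2 with a filter of 5 FPKM and 1 with the length trend removed, and the median was 0.80 with TPM. Of the 16 calls, SNHG29 and SNHG9 held in 3 of 6 alternatives, SNHG8, SNHG18, SNHG27 and SNHG30 in 5, and the other 10 in all 6. In 143B the 1 fall became 0 with a filter of 5 FPKM, with both sets of CPM size factors and with the length trend removed, and the median was -0.17 without overlapping genes. Between the controls, the number higher was 4 with a filter of 5 FPKM, 5 with centring, 2 with the length trend removed and 2 without overlapping genes, where 3 were lower. Of the 19 calls between the controls, SNHG11 and SNHG19 held in 1 of 6 alternatives, SNHG4, SNHG18, SNHG20, SNHG21 and SNHG27 in 5, and the other 12 in all 6. Without a filter on low values, all 31 host genes gave the same calls. The median in JJ012 was then 0.18. The intervals of SNHG9 in both lines were wide for lack of counts.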
